A study of Mus musculus with 3 samples.

Results

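Histone genes were followed through 3 RNA-seq libraries of mouse aortic endothelial cells. Members were the protein-coding genes whose deposited symbols begin with Hist1h to Hist4h, H1f, H2af, H2ax, H2bf, H3f or H4f, and 11 of the 18287 listed genes met this rule. By their names in GENCODE release M21, 7 are clustered genes: H1f2 (Hist1h1c), H1f3 (Hist1h1d), H1f4 (Hist1h1e), Hist1h2ao, Hist1h2ap, Hist1h2bp and Hist1h4n. The other 4 are variant genes: H1f0, H2ax (H2afx), H3f3a and H3f3b. The symbol rule does not reach every histone gene, because the deposited table uses newer symbols such as H2ac6 or H4c9 for most of them. The same pattern applied to the GENCODE names of the listed gene IDs gave 40 protein-coding genes, 31 clustered and 9 variant. These 40 are among 83 coding genes that match in the annotation, and the lowest maximum over the 3 libraries was 5 reads, so all statements concern histone genes that were detected. The 40 genes, a set formed after the values were seen, are described after the 11 members.

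Each group had 1 library. The control library came from cells without glucose oxidase or ethyl-2-hydroxybenzylamine (Et2HOBA). The glucose oxidase library came from cells given 5 mU/mL of glucose oxidase for 30 min; the enzyme makes hydrogen peroxide from glucose. The combined library came from cells given the same glucose oxidase exposure and 0.2 mM Et2HOBA for 24 h, a compound the study used to scavenge isolevuglandin adducts. All 3 came from purchased mouse aorta endothelial cells in the supplier's medium, and their libraries were stranded and made from polyadenylated RNA. The labels give no strain, age, sex or passage, nor the order of the exposures, nor the time from exposure to harvest. No Et2HOBA library without glucose oxidase was analysed here. As the groups hold single libraries, no difference can be set against a spread between cultures, and conditions were not tested.

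Histones package DNA into nucleosomes, with H2A, H2B, H3 and H4 in the core and H1 on the linker DNA. Replication-dependent histone genes lie in clusters, have no introns and are expressed mainly in S phase; their messenger RNAs typically end after a short stem-loop, bound by SLBP, in place of a poly(A) tail. Replication-independent variants such as H3.3, H1.0 and H2A.Z are made throughout the cell cycle from polyadenylated, mostly spliced transcripts. H2A.X, the variant phosphorylated around DNA breaks, can give both kinds of transcript. Selection for poly(A) keeps clustered histone transcripts only so far as they carry a tail, so levels of clustered genes here do not measure all of their RNA.

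The 3′ stem-loop is what separates the replication-dependent genes in sequence, and so its 16 bases are printed in capitals with up to 5 flanking bases, in the transcript's direction, from the GENCODE M21 transcripts (GRCm38). In all 8 genes the 6 bases of each stem arm are complementary.
H1f2: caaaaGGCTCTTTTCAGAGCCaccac
H1f3: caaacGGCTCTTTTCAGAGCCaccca
H1f4: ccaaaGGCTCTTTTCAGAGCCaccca
Hist1h2ao: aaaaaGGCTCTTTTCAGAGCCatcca
Hist1h2ap: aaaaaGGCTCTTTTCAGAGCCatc
Hist1h2bp: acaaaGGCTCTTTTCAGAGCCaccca
Hist1h4n: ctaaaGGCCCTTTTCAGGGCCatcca
H2ax: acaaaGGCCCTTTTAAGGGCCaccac
The motif searched was the histone 3′ stem-loop, on the transcript's own strand, where the middle 2 bases of each arm and 2 bases of the loop could be any letter. It was found in 201 of 55450 annotated genes (0.362%), in 136 of 21901 coding genes (0.621%), in 8 of the 11 members and in 28 of the 40 histone genes. H1f0, H3f3a and H3f3b had no match in their models. The 8 genes hold 3 different stem-loops: 6 genes share 1 of them, and H2ax and Hist1h4n each have another. Hist1h2ao and Hist1h2ap also share the 5 bases on its 5′ side.

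Annotated 3′ ends fell into separate kinds. The models of Hist1h2ap, Hist1h2ao, Hist1h4n and Hist1h2bp stop 3, 31, 31 and 38 bases after the stem-loop. The models of H2ax, H1f2, H1f4 and H1f3 run on for 822, 840, 1153 and 4884 bases. H1f2 and H2ax have a polyadenylation signal (AATAAA or ATTAAA) in the last 40 bases of those models, and H1f4 and H1f3 do not. A second Hist1h2bp model is spliced, lacks the stem-loop and has a signal.

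**Figure D1:**
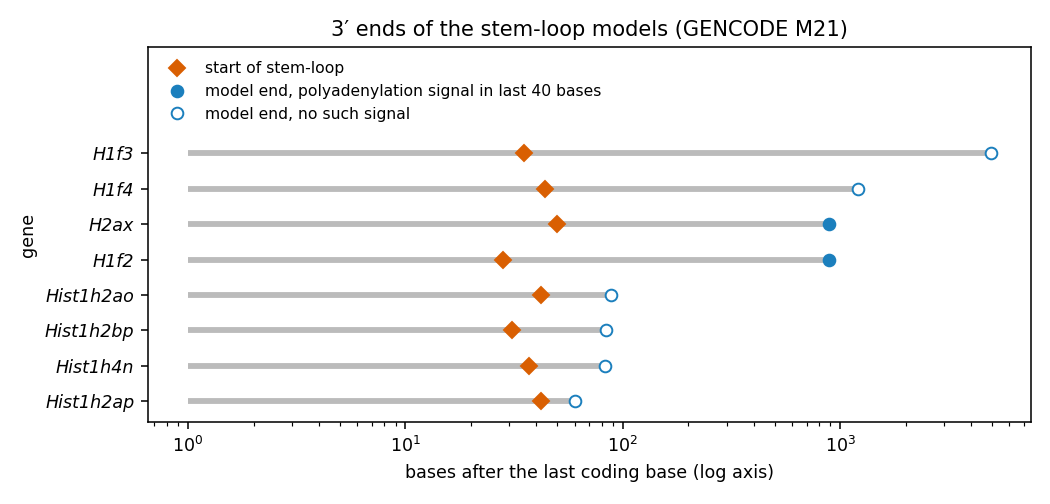
Positions of the stem-loop and of the model end in the 8 members with a stem-loop, in bases after the last coding base on a log axis, 1 row per gene. Models of 4 genes end within 38 bases of the stem-loop, and those of H2ax, H1f2, H1f4 and H1f3 run 822 to 4884 bases past it.

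In the promoter windows read here, the clustered H1 genes held motifs that the H1f0 window lacked. RefSeq windows (GRCm38.p6) matched 6 of the 11 members by symbol. The linker histone genes are shown because H1f2 and H1f0 had the same order of levels across the libraries. H1f3, H1f4, Hist1h2ao, Hist1h2ap and Hist1h4n had this order too. The windows are the 150 bases before the annotated start: chr13:23738657-23738806 (plus strand) for H1f2, chr13:23554882-23555031 (plus) for H1f3, chr13:23622559-23622708 (minus) for H1f4 and chr15:79028062-79028211 (plus) for H1f0. Capitals mark the CCAAT box, the TATA box letters TATAAA and the H1-box letters AAACACA, or their reverse complements.
H1f2: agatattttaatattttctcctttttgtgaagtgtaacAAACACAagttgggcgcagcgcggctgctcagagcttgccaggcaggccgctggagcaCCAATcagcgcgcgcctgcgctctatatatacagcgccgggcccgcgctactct
H1f3: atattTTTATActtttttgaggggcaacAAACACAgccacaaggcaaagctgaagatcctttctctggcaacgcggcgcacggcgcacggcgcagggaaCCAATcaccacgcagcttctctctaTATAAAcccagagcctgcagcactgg
H1f4: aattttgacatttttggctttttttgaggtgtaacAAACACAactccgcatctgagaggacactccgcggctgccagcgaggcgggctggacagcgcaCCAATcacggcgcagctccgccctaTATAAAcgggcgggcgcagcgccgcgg
H1f0: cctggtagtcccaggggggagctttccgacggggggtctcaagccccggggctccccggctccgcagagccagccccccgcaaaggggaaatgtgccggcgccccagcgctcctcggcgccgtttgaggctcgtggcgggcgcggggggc
The windows of H1f2, H1f3 and H1f4 each hold 1 AAACACA and 1 CCAAT. H1f3 has 2 matches to TATAAA, H1f4 has 1 and H1f2 has none, and H1f0 has no match to any of these motifs. The H1f0 window ends at 79028211, upstream of the gene model's start at 79028450. Bases between them were not searched, so the absence holds for this window only. The H3f3a and H3f3b windows hold 1 CCAAT each, and that of H3f3b also holds 1 TATAAA. Of 32851 RefSeq windows of this length, searched on both strands, 24.5% hold CCAAT, 7.57% TATAAA and 3.53% AAACACA. A match is a description of the letters, not a measured site.

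Over the listed genes the control library held 35969965 reads, the glucose oxidase library 35005089 and the combined library 40212212. Values below are whole reads per library, in this order of libraries. Folds and ratios compare counts divided by size factors, with exact Clopper-Pearson 95% intervals that cover counting error between 2 libraries, not differences between cultures. The log2 ratio is that of normalized count plus 10, which understates differences of low genes, and its median over all listed genes was -0.01 for glucose oxidase against control, -0.00 for the combined library against control and 0.00 between the treated libraries. A gene was counted as higher or lower at a log2 ratio of 1 or more in size. The glucose oxidase library stood apart in processed pseudogenes, intronless copies of spliced transcripts: 39.9% of 2110 were lower there than in control, and 2.46% were lower in the combined library.

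Variant genes supplied nearly all of the members' reads. The 4 variants together had 52139, 39919 and 41887 reads, and the 7 clustered genes had 1853, 906 and 1583. All 11 members made up 0.150%, 0.117% and 0.108% of the reads. Counts were divided by the kb of all annotated exons, a length that depends on the models, so levels of different genes compare only roughly. The control order was H3f3a (6537 normalized reads per kb), H3f3b (5955), H1f0 (3968), H2ax (1256), H1f2 (970), Hist1h2ao (230) and Hist1h2ap (183). The other 4 clustered genes lay between 6.53 and 18.0 normalized reads per kb. H3f3b led the order in both treated libraries, at 5811 and 5769 normalized reads per kb against 4932 and 4142 for H3f3a. No spread between cultures is known, so neighbours in this order cannot be called different beyond it.

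**Figure D2:**
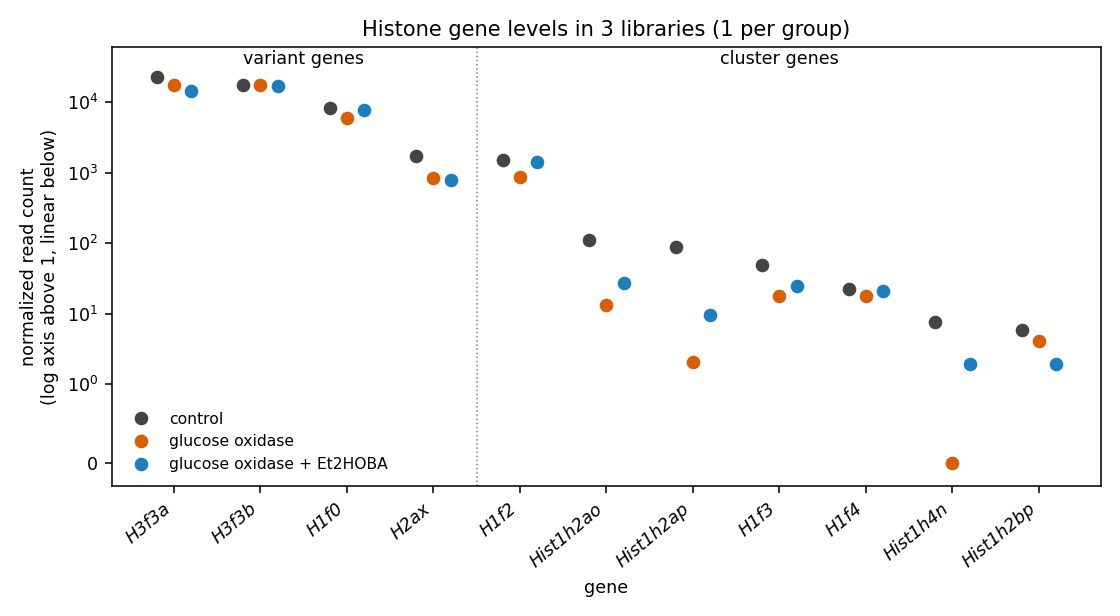
Normalized read counts (log axis above 1, linear below) of the 11 members in the control, glucose oxidase and combined (Et2HOBA) libraries, 1 point per library. The control point is the highest of the 3 for each gene, and the variant genes lie above all clustered genes but H1f2.

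All 11 members had their highest normalized count in control. Their log2 ratios ran from -3.02 to -0.04 for glucose oxidase and from -2.32 to -0.05 for the combined library. Past the limit of 1, 4 of 11 were lower and 0 higher in the glucose oxidase library, where 8.6% of all listed genes were lower, 4.07% were higher and 4.76% of protein-coding genes were lower. In the combined library 3 of 11 were lower and 0 higher, where 8.04% of all listed genes and 9.3% of protein-coding genes were lower and 6.66% of all listed genes were higher. Between the treated libraries no member passed the limit, where 6.39% of all listed genes were higher and 2.15% lower in the combined library. Both comparisons use the same control library, so a high control count enters each of them. Lower transcript per cell and fewer cells that make the transcript cannot be told apart in such bulk libraries.

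H3f3a and H3f3b encode the same H3.3 protein, the H3 form deposited outside replication, and their levels differed from library to library in unlike ways. H3f3a (ENSMUSG00000060743.12, chromosome 1, 180800832 to 180813943, minus strand, spliced) had 23639, 16683 and 15075 reads. The control library was highest and the combined library lowest. Its ratio to control was 0.754 (0.740 to 0.770) in the glucose oxidase library and 0.634 (0.621 to 0.647) in the combined library, and the combined library stood at 0.840 (0.822 to 0.859) of the glucose oxidase library.

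H3f3b (ENSMUSG00000016559.14, chromosome 11, 116021912 to 116027962, minus strand, spliced) had 18290, 16694 and 17831 reads. Its levels were nearly even, at 0.976 (0.955 to 0.997) and 0.969 (0.949 to 0.989) of control. The ratio of H3f3a to H3f3b reads within a library needs no scaling between libraries. It was 1.29 (1.27 to 1.32) in control, 0.999 (0.978 to 1.02) with glucose oxidase and 0.845 (0.827 to 0.864) in the combined library. The balance of the H3.3 genes thus ran from more H3f3a reads in control to more H3f3b reads in the combined library. Of the 50-base stretches in its longest transcript, H3f3a shared 30.3% with other annotated genes on either strand, among them the opposite-strand Gm17275, and H3f3b shared 8.40%.

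H1f0 encodes H1.0, the linker histone that accumulates in differentiated and resting cells. The gene (ENSMUSG00000096210.2, chromosome 15, 79028450 to 79030504, plus strand, 1 exon) had 8416, 5730 and 8161 reads. The glucose oxidase library was low, at 0.728 (0.704 to 0.753) of control, and the combined library was near control, at 0.964 (0.935 to 0.993). The combined library was 1.32-fold (1.28 to 1.37) above the glucose oxidase library. An annotated antisense gene, Gm49544, overlaps H1f0.

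H2ax (ENSMUSG00000049932.3, chromosome 9, 44334694 to 44336077, plus strand, 1 exon) had 1794, 812 and 820 reads. Both treated libraries were low and lay close together. The gene was 2.07-fold lower (1.90 to 2.25) with glucose oxidase and 2.20-fold lower (2.03 to 2.39) in the combined library, with log2 ratios of -1.04 and -1.13. It was the variant gene of the 4 past the limit, and it is the 1 of them whose model has a stem-loop. The combined library stood at 0.939 (0.851 to 1.04) of the glucose oxidase library, an interval that includes equality. Against H2az1, an H2A.Z gene and no member, the within-library ratio of H2ax reads was 0.225 (0.214 to 0.237), 0.128 (0.119 to 0.137) and 0.106 (0.0986 to 0.114). In the authors' deposited table H2ax had log2 differences of -0.90 for glucose oxidase and -1.08 for the combined library, and the former lies inside the limit. The transformation behind the deposited values shrinks differences, most at low counts, so these values are not log2 folds.

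H1f2 encodes linker histone H1.2 and held 1561 of the 1853 clustered reads in control. The gene (ENSMUSG00000036181.2, chromosome 13, 23738808 to 23740367, plus strand, 1 exon) had 1561, 853 and 1493 reads. Its glucose oxidase value was low and its combined value was near control, the order seen for H1f0. The ratio to control was 0.584 (0.537 to 0.635) and then 0.950 (0.885 to 1.02), and the combined library was 1.63-fold (1.49 to 1.77) above the glucose oxidase library. The log2 ratio of -0.77 for glucose oxidase lies inside the limit. Processed pseudogenes, also intronless, had median log2 ratios to control of -0.82 with glucose oxidase and 0.13 in the combined library. Whether the 2 are linked was not tested. The within-library ratio of H1f2 to H1f0 reads was 0.185 (0.176 to 0.196), 0.149 (0.138 to 0.160) and 0.183 (0.173 to 0.193).

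H1f3, the gene of H1.3, was counted at far lower depth. The gene (ENSMUSG00000052565.7, chromosome 13, 23553262 to 23560686, plus strand) had 50, 17 and 26 reads over an exonic model of 7425 bases. Both treated values were below control, 2.75-fold (1.56 to 5.09) and 1.94-fold (1.18 to 3.24), with log2 ratios of -1.08 and -0.74. In the authors' deposited table, whose scale shrinks differences at low counts, the log2 difference for glucose oxidase was -0.38, inside the limit. The RefSeq start printed with its promoter lies inside this model, which begins upstream of it. H1f4, the gene of H1.4 (ENSMUSG00000051627.3, chromosome 13, 23620629 to 23622558, minus strand), had 23, 17 and 22 reads, and its interval for glucose oxidase, 0.396 to 1.55 of control, includes equality. H1f4 overlaps H2bc6 (Hist1h2be) on the same strand and shared 32.0% of its stretches.

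Hist1h2ao and Hist1h2ap, H2A genes of the chromosome 13 cluster with models that stop just after the stem-loop, had the largest differences of the 11. Hist1h2ao (ENSMUSG00000094248.1, chromosome 13, 21810465 to 21810944, plus strand) had 114, 13 and 28 reads. Control was high and both treated libraries were low, by 8.20-fold (4.61 to 15.9) with glucose oxidase and 4.10-fold (2.69 to 6.44) in the combined library. Hist1h2ap (ENSMUSG00000094777.2, chromosome 13, 21833026 to 21833507, minus strand) had 91, 2 and 10 reads. Its ratio to control was 0.0235 (0.00280 to 0.0873) with glucose oxidase, resting on 2 reads, and it was 9.16-fold lower (4.76 to 19.7) in the combined library.

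These genes are not independent counts. Hist1h2ao shared 93.5% of its 50-base stretches with Hist1h2ap, Hist1h2ap shared 93.1% with Hist1h2ao, and 48 annotated genes share sequence with each, so how reads were assigned among near-identical H2A copies could move either value. Summed, the pair had 205, 15 and 38 reads, 12.8-fold lower (7.57 to 23.3) with glucose oxidase and 5.43-fold lower (3.83 to 7.89) in the combined library. The combined library was 2.35-fold (1.27 to 4.61) above the glucose oxidase library for the pair. The processed pseudogene Hist1h2al, which the symbol pattern also catches, had 174, 94 and 96 reads. In the authors' deposited table the log2 differences were -0.92 and -1.09 for Hist1h2ao and -1.09 and -1.36 for Hist1h2ap. These are smaller than the folds above because the deposited scale shrinks differences at low counts.

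The remaining clustered genes were near the detection limit. Hist1h2bp, an H2B gene (ENSMUSG00000069308.7, chromosome 13, 21787461 to 21789213, plus strand), had 6, 4 and 2 reads, and no difference was detectable at this depth. Hist1h4n, an H4 gene (ENSMUSG00000069305.3, chromosome 13, 21831767 to 21832196, minus strand), had 8, 0 and 2 reads. Against a floor of 3 reads in the glucose oxidase library the 8 control reads make it at least 2.49-fold lower there, while counting error in both libraries allows up to 0.626 of control. Its ratio in the combined library was 0.248 (0.0257 to 1.25). It shared 85.6% of its stretches with other genes.

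By list, the clustered genes had a median log2 ratio of -0.83 for glucose oxidase, or -0.77 with Hist1h4n set to the floor, and 3 of 7 were lower past the limit (H1f3, Hist1h2ao and Hist1h2ap). In the combined library the median was -0.57 and 2 of 7 were lower, Hist1h2ao and Hist1h2ap. The shares of lower genes were 8.6% and 8.04% over all listed genes, and 4.76% and 9.3% over protein-coding genes. Between the treated libraries 6 of 7 lay above 0, with a median of 0.34 and none past the limit, whereas in the 31 clustered genes described below 12 lay above 0 and 19 below, with a median of -0.14. The variant genes had medians of -0.43, -0.36 and -0.05, with H2ax lower in both comparisons with control. Summed reads of the clustered genes stood at 0.523 (0.482 to 0.566) of control with glucose oxidase and 0.849 (0.793 to 0.908) in the combined library, sums that follow H1f2. Without H1f2, H1f3 and H1f4 the other 4 clustered genes summed to 219, 19 and 42 reads.

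**Figure D3:**
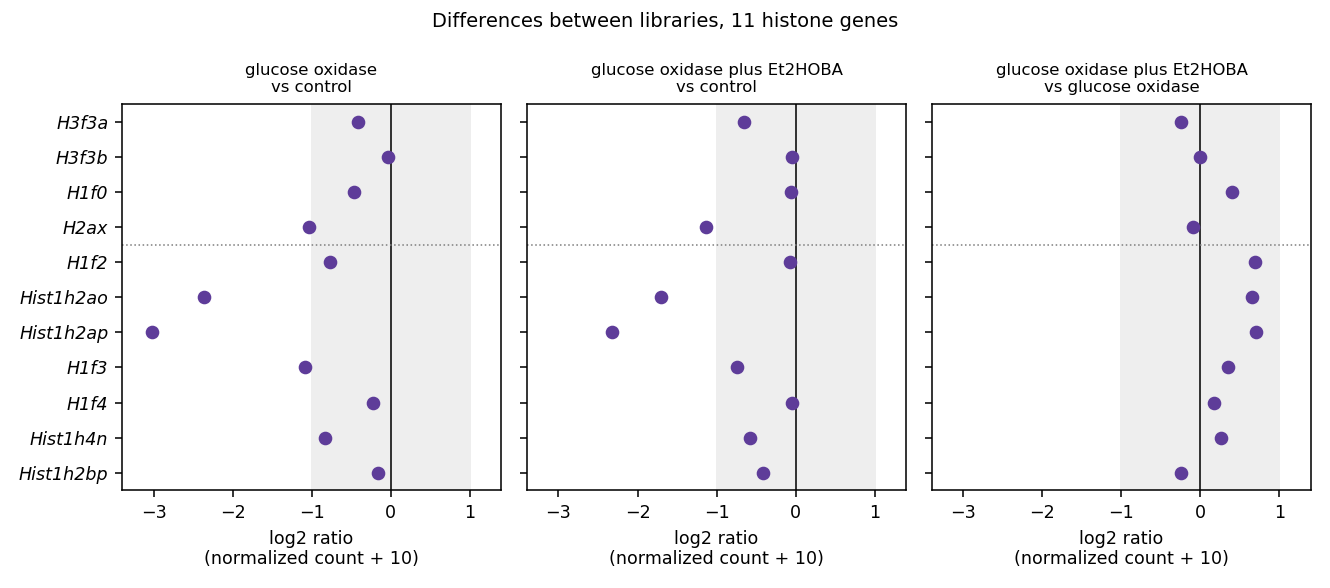
Log2 ratios (normalized count plus 10) of the 11 members in the 3 comparisons, variants above the dotted line and clustered genes below it, with the range inside the limit of 1 in grey. All points lie below 0 in both comparisons with control, and no point passes the limit between the treated libraries.

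Of the 11 members, 5 shared under 10% of their stretches with other genes: H1f0, H1f2, H1f3, H2ax and H3f3b. Their median log2 ratios were -0.77 for glucose oxidase and -0.07 for the combined library, with 2 and 1 of 5 lower past the limit. Over all listed genes 8.6% and 8.04% were lower, and over protein-coding genes 4.76% and 9.3%. Processed copies of H3f3a were also low with glucose oxidase. H3f3a-ps1 had 202, 97 and 121 reads, H3f3a-ps2 had 147, 39 and 77, and H3f3c had 92, 43 and 59. All 3 were below control in both treated libraries and lowest with glucose oxidase, whereas H3f3a itself was lowest in the combined library. The part of shared reads in the H3f3a values was not tested. The antisense transcript H3f3aos had 29, 49 and 35 reads.

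In the 40 histone genes of the wider set, 36 lay below 0 with glucose oxidase and 34 in the combined library. Past the limit 5 and 8 were lower and 0 were higher in either. Of all listed genes 8.6% and 8.04% were lower, and of protein-coding genes 4.76% and 9.3%. Of the 31 clustered genes, 4 were lower with glucose oxidase (median log2 ratio -0.39) and 7 in the combined library (-0.57). Few reads stand behind most of them: 16, 23 and 21 of the 31 had under 20 reads in the respective libraries. H2A genes held most of the larger differences, though these copies share sequence and are not independent counts. Of 8 clustered H2A genes, 3 were lower with glucose oxidase and 4 in the combined library, with medians of -0.60 and -1.08.

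H2ac7 (Hist1h2ad, H2A) had 31, 8 and 2 reads, and H2ac6 (Hist1h2ac, H2A) had 37, 18 and 9. For both, the combined library was the lowest, with log2 ratios to control of -1.75 and -1.30. H2ac7 shared 67.1% of its stretches and H2ac6 shared 14.1%. H4c9 (Hist1h4i) had the most reads of the 9 clustered H4 genes, 264, 130 and 97, with log2 ratios of -0.88 and -1.36, and shared 28.9% of its stretches. Of the 7 H2B genes, none was lower past the limit with glucose oxidase and 2 were in the combined library. They were H2bc8, with 57, 28 and 13 reads and 49.7% of its stretches shared, and H2bc6, with 66, 30 and 27 and 17.9%. Thus the clustered genes past the limit in the combined library were Hist1h2ao, Hist1h2ap, H2ac6, H2ac7, H2bc6, H2bc8 and H4c9.

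Other clustered genes stayed inside the limit. H2bc4 (Hist1h2bc), whose GENCODE model is spliced and has no stem-loop, had 491, 366 and 506 reads and was near control in the combined library (log2 ratio 0.03). H2bc21 (Hist2h2be), on chromosome 3 and also without the stem-loop, had 156, 129 and 128 reads. H4c8 (Hist1h4h) had 31, 26 and 57 reads and was 1.83-fold (1.16 to 2.93) above control in the combined library. The 4 clustered H3 genes had 50, 30 and 23 reads in all, and none passed the limit.

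Annotated ends and the stem-loop split the clustered genes as follows. Among 9 genes whose model ends within 100 bases of the stem-loop, 3 were lower in each comparison with control, with medians of -0.83 and -0.57, on 298, 61 and 109 reads in all. The former is the value of Hist1h4n, and with genes at 0 set to the floor of 3 reads it is -0.44, above the median of the longer models. Among 18 genes whose model runs further, 1 and 4 were lower, with medians of -0.54 and -0.71, on 2443, 1362 and 1901 reads. Over all listed genes 8.6% and 8.04% were lower, and over protein-coding genes 4.76% and 9.3%. The 1 of 18 lies near these shares. Of 4 without a stem-loop in the model, H2ac13 and H4c12 have models that stop with the coding sequence, so none could be found there. They had 5, 2 and 1 reads and 13, 11 and 8 reads. None of the 4 was lower past the limit. These counts describe few reads and overlapping sequence, and the differences between the sets were not tested.

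**Figure D4:**
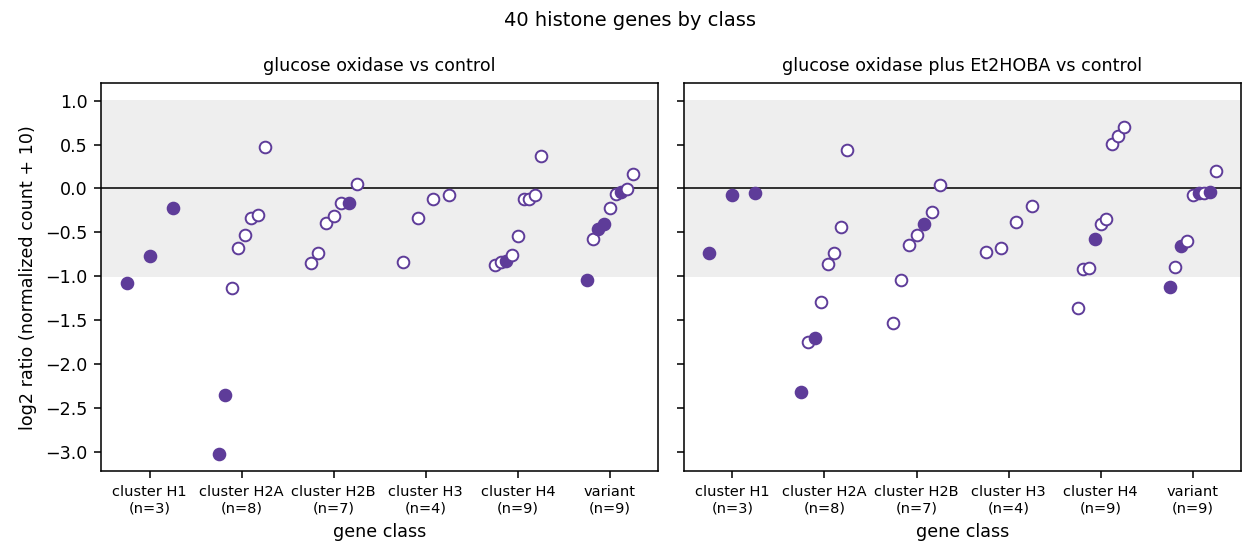
Log2 ratios to control (normalized count plus 10) of the 40 histone genes by class, glucose oxidase on the left and glucose oxidase plus Et2HOBA on the right, with members filled and the other 29 genes open. Points below the grey band passed the limit: 5 genes on the left and 8 on the right, with no point above the band.

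Among variants outside the symbol rule, H2A.Z genes differed from each other. H2az1 had 7961, 6360 and 7732 reads (log2 ratios -0.23 and -0.05), and H2az2 had 1278, 798 and 687 (-0.58 and -0.89). H2az2 shared no 50-base stretch with another gene, whereas H2az1 shared 69.6% of its stretches. Macroh2a1, a variant with a large non-histone domain, had 3795, 3974 and 4394 reads and was the 1 variant of 9 above 0 in both comparisons (0.16 and 0.20). Macroh2a2 had 111, 99 and 70 reads, and H2aj, the gene of H2A.J, had 5051, 4692 and 4819. H2ax was the only 1 of the 9 variant genes past the limit, in both comparisons with control.

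Genes that act with histones were read from lists chosen with earlier results of these data known. The DNA replication list covers the helicase, polymerases, nucleotide supply and S-phase cyclins. Of its 37 genes, 16 were lower past the limit with glucose oxidase and 27 in the combined library, with 0 higher. Of all listed genes, 8.6% and 8.04% were lower. The list's median log2 ratio was -0.98, then -1.54, and -0.56 between the treated libraries. There 7 of its genes were lower, beside 2.15% of all listed genes. Cdc6, which loads the replicative helicase, had 644, 180 and 37 reads, and Ccna2, the S-phase cyclin A, had 1723, 339 and 171. Pole, the leading-strand polymerase, had 1304, 447 and 167, and Mcm5, a helicase subunit, had 3041, 967 and 443. In these 4 genes the combined library was the lowest.

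Chaperones that carry histones differed by member. Of 35 genes, 3 were lower with glucose oxidase and 5 in the combined library. Of all listed genes 8.6% and 8.04% were lower, and of protein-coding genes 4.76% and 9.3%. The glucose oxidase count is thus at the share over all genes and above that over protein-coding genes. None of the 35 were higher, and their medians were -0.02 and -0.05. Asf1b, an H3-H4 chaperone of proliferating cells, had 573, 170 and 79 reads, and Chaf1a, the large subunit of the replication-coupled assembly factor CAF-1, had 1430, 688 and 462. Chaf1a shared 48.0% of its stretches with other genes. Oip5, with 152, 56 and 35 reads, and Hjurp, with 2417, 1145 and 822, act in loading the centromeric H3 variant. That variant's gene, Cenpa, which the symbol rule leaves out, had 1128, 243 and 166 reads, with log2 ratios of -2.08 and -2.70.

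The machinery of histone transcription and 3′ processing varied less. All 22 genes of the list were found (3 older symbols in it, Ars2, Mizf and Zcchc6, stand for Srrt, Hinfp and Tut7). The medians were -0.01 and -0.00. Past the limit 0 were lower with glucose oxidase and 2 in the combined library, where 8.6% and 8.04% of all listed genes were lower. In the combined library 9.3% of protein-coding genes were lower, so its count is near these shares. The 2 lower genes were Srrt and Nfyc. Srrt, which encodes ARS2 of the cap-binding complex, had 7188, 4873 and 3191 reads. Nfyc, a subunit of the CCAAT-binding factor, had 1014, 582 and 489. Nfyc shared 34.3% of its stretches. Slbp, the stem-loop binding protein, was named after its values were seen and had 1538, 979 and 858 reads, with log2 ratios of -0.55 and -0.84.

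**Figure D5:**
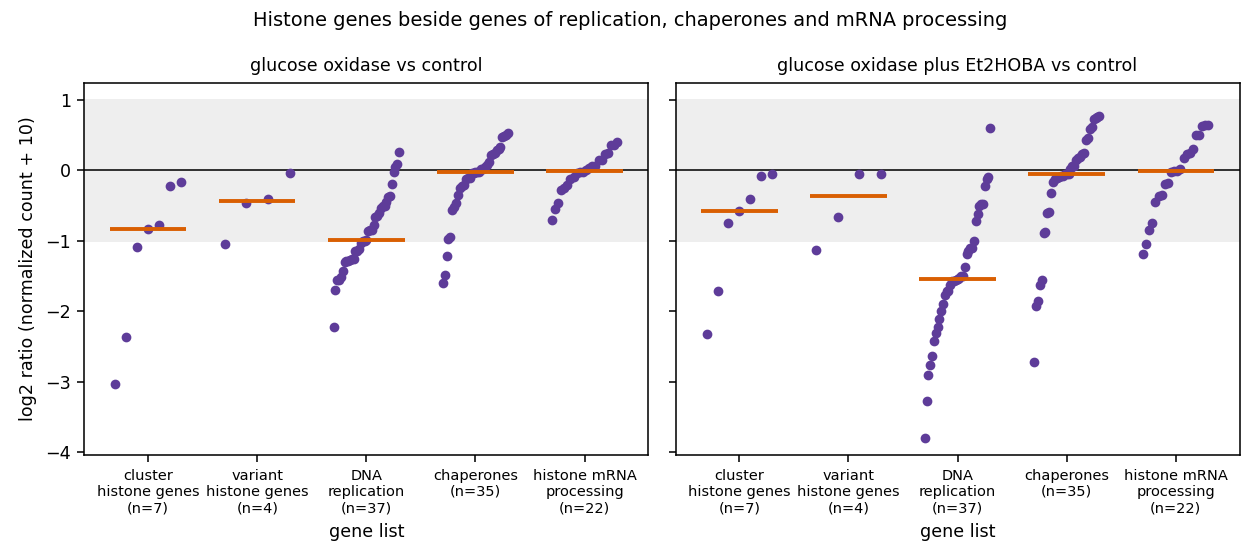
Log2 ratios to control (normalized count plus 10) of the clustered and variant members and of the 3 lists of replication, chaperone and histone mRNA processing genes, 1 point per gene, with the median as a bar and the range inside the limit of 1 in grey. The replication list has medians of -0.98 and -1.54, whereas the chaperone and processing lists lie at or near 0.

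The endothelial label was checked against its markers. All 8 endothelial markers were listed, with 297311, 180474 and 184982 reads summed. Past the limit 3 of 8 were lower with glucose oxidase and 4 in the combined library, where 8.6% and 8.04% of all listed genes were lower. Of smooth muscle markers 5 of 6 were listed, with 5014, 3588 and 4095 reads summed, and Myh11 had 19, 35 and 73. The sum does not describe most of the 5: 1 lay below 0 with glucose oxidase and 2 in the combined library. Their median log2 ratios were 0.12 and 0.07. Of fibroblast markers 3 of 6 were listed, summing to 137, 1367 and 2844 reads, mostly Pdgfra with 107, 1325 and 2821; Col1a2, Dcn and Lum were not listed and Col3a1 was at 2, 12 and 0. Of leukocyte markers Cd68 was listed, with 8215, 17067 and 27799 reads, and Ptprc and the other 4 were not. Of epithelial markers Krt8 was listed, with 1, 5 and 6 reads. The endothelial sum was lower in both treated libraries than in control, as the summed histone reads were, and Cd68 and Pdgfra were higher in both; the part of these differences in the histone values was not tested.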

How the data were processed

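RNA of 3 libraries, 1 per group, was read from gene tables. Per the submitters' processing notes, STAR, featureCounts and mm10 were used, with no roles or versions given. Raw read counts of the control and combined libraries were deposited, with log2 values and their difference, per the file headers. For glucose oxidase against control the authors deposited a log2 difference per symbol. Glucose oxidase counts were recovered by inverting the deposited transformation (inverse hyperbolic sine of the square root), which the labels do not describe: 100% of 18275 genes matched by symbol came within 0.01 of a whole read, against 3.31% when 1 read was added to the control counts, and 12 more genes were placed by whole reads.

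Median-of-ratios size factors over all genes scaled the counts (1.03, 0.965 and 1.04). Pseudocount 10, limit 1 and floor 3 reads were used. No count model was fitted, as 1 library per group gives no spread. Intervals and floors cover counting error only. TMM factors came from edgeR 4.0.16; other steps used Python 3.11.15, scipy 1.17.1 and pandas 2.3.3. Coordinates are those of the deposited table; 17878 IDs had the same version, and all the same position, in GENCODE M21. Overlap with opposite-strand genes matters if counting ignored strand, which is not given in the sources used here. The recovery of counts and the call of genes past the limit were tested on simulated data, and the intervals were not.

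Members were named where they passed the limit, were among the 5 most abundant of their list in control, or were H1, H2A or H3 variants above the floor; up to 6 genes past the limit per other list could be named, and 1 of these is not reported here. Members and lists were chosen with earlier results of these data known.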

Additional observations from a re-analysis of the deposited data

How the results depend on the processing

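The counts of genes past the limit were 3 of 7 clustered genes for glucose oxidase against control, 2 for the combined library against control and 0 between the treated libraries, and 1, 1 and 0 of 4 variant genes. Of 60 recomputed counts 48 were within 1.5 times of these and 12 moved. Some of the 48 were fixed in advance: leaving out Hist1h2ao and Hist1h2ap, or genes of low mean count, removes no variant gene. With a pseudocount of 1, clustered counts were 4 in the combined library and 2 between the treated libraries. At a limit of 0.5 they were 5, 4 and 3, and the variant count in the combined library was 2. With the authors' deposited log2 differences the clustered count for glucose oxidase was 1 and the variant count 0. That scale shrinks differences at low counts, so the same limit is stricter there. Alternatives chosen after seeing the data also moved them: with the 40 genes the clustered count in the combined library was 7, without Hist1h2ao and Hist1h2ap the clustered counts with glucose oxidase and in the combined library were 1 and 0, and with only Hist symbols taken as clustered the variant count for glucose oxidase was 2. The median between the treated libraries turned from 0.34 to -0.14 for clustered genes with the 40 genes, and from -0.05 to 0.18 for variant genes with only Hist symbols as clustered. The cause of the other moves was not tested. Scaling by total count put the median of all genes at -0.06, -0.13 and -0.08; this scaling, TMM factors and size factors over protein-coding genes left the same members past the limit in each comparison. No member shares 0 stretches with other genes, so that alternative gave no value. No paired analysis was possible because each group has 1 library and no test was made; leaving out a library leaves no comparison. Depth limits Hist1h2bp, Hist1h4n, H1f4 and most of the wider set, where a few reads decide a ratio.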
